A study of Mus musculus with 51 samples.

Results

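The Notch pathway genes described here are *Notch1*, *Notch2*, *Notch3*, *Dll1*, *Dll3*, *Jag1*, *Hes1*, *Hes7*, *Hey1* and *Lfng*, chosen by symbol. All 10 were found in each of 9 expression tables, among 24538 genes. The tables hold RNA-seq values from mouse embryonic stem cells (mESCs) and from the cells they gave rise to under Bmp4 (20 ng/ml). Bmp4 is the signal used here to direct mESCs towards cardiac mesoderm. F1G4 WT cells were measured at the stage labelled ES and after 1, 2 and 3 days. In the paper, ES stands for the embryoid body stage, mESC aggregates formed in drops before Bmp4 was added. Cells of that stage are called ES cells here. Cells lacking *Eomes* (KO), *T* (KO) or both (dKO) were measured on day 2 and day 3. For *Smad4*, KO and WT cells of a separate line were measured on day 1 and day 2. All differentiated cells, WT included, received Bmp4. Double-nicking CRISPR/Cas9 in F1G4 cells removed the promoter and first exon of *Eomes* or of *T*, and the dKO line was derived from the *Eomes* KO line. Transient Cre removed the floxed first exon of *Smad4* from conditional mESCs (129S/SvEv and C57BL/6 background). KO lines were picked as single clones, so that a difference between a KO line and WT and a difference between clones cannot be told apart. mESCs were kept on feeder cells, which were removed before differentiation.

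Each table gives a single FPKM value (fragments per kilobase of transcript, scaled to library size) for each gene and condition, 14 conditions in all. The labels give 2 samples per F1G4 WT stage and 1 sample for each other line and day, although how many samples a KO value pools is not clear from the sources used here, and no spread between samples can be had from the pooled values. Differences are therefore described without a test, and the depth behind each value is unknown. A gene was examined where FPKM exceeded 1 in either group, and was called higher or lower where the log2 ratio was above 1 or below −1. As a yardstick, F1G4 WT cells were compared with *Smad4*-line WT cells of the same day (day 1 or day 2), and the 95th percentile of the absolute log2 ratio was taken for genes of like level (10 equal groups). It fell from 1.98 for genes up to 1.89 FPKM to 1.35 at 3.2 to 5.04 FPKM and 0.95 at 24.8 to 41.2 FPKM, and it also contains the difference between the lines.

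Notch receptors are cell surface proteins that are activated by Delta-like or Jagged ligands on neighbouring cells. Ligand binding leads to cleavage of the receptor by Adam proteases and γ-secretase, and the released intracellular domain enters the nucleus, where it joins Rbpj and Maml proteins and activates genes such as those of the Hes and Hey families of repressors. In the embryo the pathway is known for the segmentation clock of the presomitic mesoderm, in which *Dll1*, *Dll3*, *Lfng* and *Hes7* take part.

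In the GRCm38.p6 build, *Notch1* lies at chr2:26457902-26503822, *Jag1* at chr2:137081451-137116520, *Hey1* at chr3:8663359-8667038, *Notch2* at chr3:98013538-98150367 and *Lfng* at chr5:140607341-140615545. *Dll3* lies at chr7:28293555-28301785, *Hes7* at chr11:69118906-69124054, *Hes1* at chr16:30065357-30067796, *Dll1* at chr17:15367354-15376932 and *Notch3* at chr17:32120820-32166896. Promoter windows (250 bases before to 50 after an annotated start, RefSeq, GRCm38.p6) were found for 8 of the 10 genes, and *Dll1* had a pair of them. The start used for *Hes7* lies inside the gene span given above. The entries of *Hes1* and *Hey1* were missing. The promoters of *Lfng*, *Dll1* and *Dll3* are printed because these 3 genes were called together in *Smad4* KO cells and because *Dll1* and *Dll3* carried the day 3 calls in the KO lines. Each sequence is the 250 bases before the start on the strand of the gene, and capitals mark TGGGAA or its reverse complement TTCCCA, the core of the Rbpj motif.
Lfng, chr5:140607091-140607340, + strand: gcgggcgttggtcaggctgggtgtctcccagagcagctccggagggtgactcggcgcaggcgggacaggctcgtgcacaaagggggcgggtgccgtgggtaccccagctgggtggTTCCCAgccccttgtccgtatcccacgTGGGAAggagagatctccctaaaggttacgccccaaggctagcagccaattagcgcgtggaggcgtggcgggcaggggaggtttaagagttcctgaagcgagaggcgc
Dll1, start at the end of the gene, chr17:15376933-15377182, − strand: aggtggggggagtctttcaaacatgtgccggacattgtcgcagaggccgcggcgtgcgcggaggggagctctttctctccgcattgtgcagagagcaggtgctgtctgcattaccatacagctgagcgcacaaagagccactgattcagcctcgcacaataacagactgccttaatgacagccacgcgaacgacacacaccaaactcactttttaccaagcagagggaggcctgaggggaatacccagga
Dll1, inner start, chr17:15375824-15376073, − strand: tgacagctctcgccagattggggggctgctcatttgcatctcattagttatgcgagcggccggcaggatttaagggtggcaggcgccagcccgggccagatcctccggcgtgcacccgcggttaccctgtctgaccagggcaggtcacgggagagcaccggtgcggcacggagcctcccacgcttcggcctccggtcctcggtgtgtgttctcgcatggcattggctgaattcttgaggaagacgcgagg
Dll3, chr7:28301786-28302035, − strand: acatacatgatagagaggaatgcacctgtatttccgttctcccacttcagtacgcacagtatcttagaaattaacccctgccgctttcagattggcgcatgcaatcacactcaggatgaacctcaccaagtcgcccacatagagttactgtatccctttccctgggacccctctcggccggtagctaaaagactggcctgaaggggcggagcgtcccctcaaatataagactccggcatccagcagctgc
The Rbpj core was present in the windows of *Lfng* (at 135 and 108 bases before the start) and *Hes7*, that is in 2 of 8 genes, and in 25.6% of all 32851 windows. The second copy in *Lfng* shares 2 bases with a CACGTG E-box, which was found in 7.15% of all windows. The T-box core GGTGTGA or TCACACC was in none of the 8 genes' windows and in 3.98% of all windows. The Tcf/Lef core TTTGAT or ATCAAA was in the window of *Notch2* and in 11.9% of all windows, and the N-box CACNAG or CTNGTG, bound by Hes proteins, was in those of 6 genes (*Dll1*, *Hes7*, *Lfng*, *Notch1*, *Notch2* and *Notch3*) and in 42.5% of all windows. These matches describe the letters in these windows.

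To check the labels, the targeted genes were examined first. *Eomes*, a T-box factor of early mesendoderm, stood at 2.42 FPKM in *Eomes* KO cells on day 2 against 9.42 in WT, and at 0.276 against 20.3 on day 3. *T* (Brachyury), a T-box factor of the primitive streak, was at 6.64 FPKM in *T* KO cells on day 2 against 44.8 in WT, and at 3.00 against 322.8 on day 3. In dKO cells on day 3 *Eomes* was at 0.346 FPKM and *T* at 1.93. *Smad4* FPKM was 39.4 in *Smad4* KO cells against 33.8 in WT on day 1 and 46.8 against 39.3 on day 2, so that the removal of its first exon cannot be read from the value of the whole gene. The nascent mesoderm markers *T*, *Eomes*, *Mixl1*, *Wnt3* and *Fgf8*, which include targeted genes, summed in F1G4 WT cells to 1.39 FPKM (ES cells), 6.23 (day 1), 84.3 (day 2) and 435.3 (day 3). On day 3 the sum was 8.61 in *Eomes* KO, 31.9 in *T* KO and 21.8 in dKO cells, and it was 4.08 in *Smad4* KO cells on day 2 against 86.0 in WT. The 5 fibroblast genes taken as marks of feeder cells summed to between 0.553 and 4.00 FPKM in the 14 conditions.

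*Hes1*, a repressor of the Hes family, was the highest of the 10 genes in each of the 14 conditions, at 8.07 to 41.6 FPKM. *Notch3* took the second place in 9 conditions, *Notch2* in 4 and *Jag1* in ES cells. *Hes7*, the Hes gene of the segmentation clock, took the last place throughout. It was listed at 0 in 13 conditions and at 0.0434 FPKM in *Smad4* KO cells on day 1. *Dll3* had the widest range of the 9 remaining genes, 15.7-fold from its lowest to its highest condition, followed by *Dll1* at 7.80-fold, and *Notch2* had the narrowest at 2.91-fold. In ES cells the genes after *Hes1* lay close together, with *Jag1* at 3.52 FPKM, *Notch3* at 2.76, *Notch2* at 2.72, *Hey1* at 2.63 and *Notch1* at 2.55. Each of these neighbours differed by at most 0.35 on the log2 scale, less than the yardstick at this level (1.35 to 1.63), so that their order is not resolved.

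**Figure D1:**
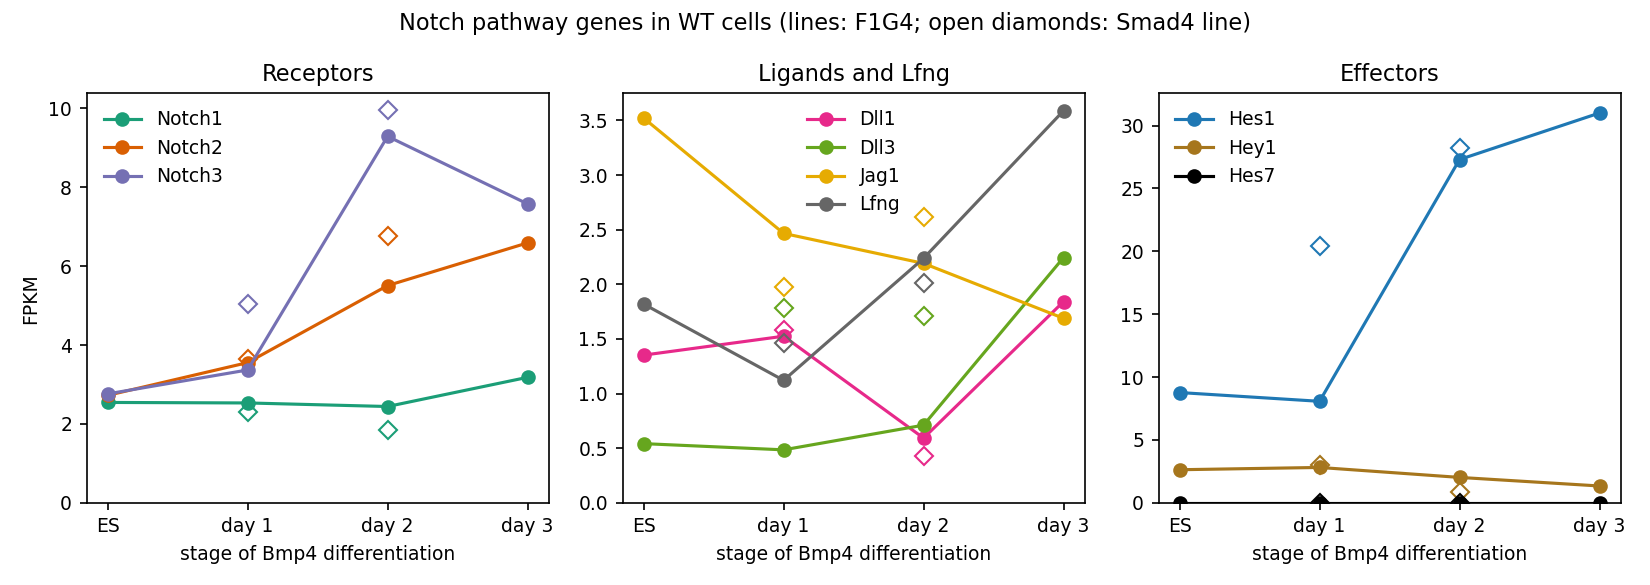
FPKM of the Notch pathway genes in F1G4 WT cells (lines and filled points) by stage, with Smad4-line WT cells of day 1 and day 2 as open diamonds. Notch3 and Hes1 were 2.76-fold and 3.38-fold higher on day 2 than on day 1 in F1G4 WT cells, and Dll1 and Dll3 were higher on day 3 than on day 2.

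During differentiation of F1G4 WT cells, the receptors *Notch2* and *Notch3* and the effector *Hes1* ended higher than they began, and the Delta-like genes were higher on day 3 than on day 2. The ligand *Jag1* ended lower by a difference that just passed the threshold. Between the ES state and day 1 none of the 10 genes was called (8 examined), where 13.5% of all examined genes were. Between days 1 and 2, 2 genes were higher and 1 lower of 8 examined, beside 11.3% of all genes called. Between days 2 and 3, 2 were higher and 0 lower of 9 examined, beside 10.2% of all genes. From the ES state to day 3, 4 were higher (*Notch2*, *Notch3*, *Dll3* and *Hes1*) and 1 lower (*Jag1*) of 9 examined, beside 31.1% of all genes. The median log2 ratio of the 9 genes with a value above 0 was 0.98 from the ES state to day 3, and that of all 14855 genes with such values was 0.02. Members examined only through their high stage were bound to differ, so these counts are a description.

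Among the receptors, *Notch1* stood at 2.55, 2.53, 2.44 and 3.18 FPKM in ES cells and on days 1, 2 and 3. *Notch2* stood at 2.72, 3.56, 5.51 and 6.59 FPKM, 2.42-fold higher on day 3 than in ES cells. *Notch3* stood at 2.76, 3.37, 9.29 and 7.58 FPKM. The 3 receptors were thus nearly level in ES cells, and *Notch3* gained most, by 1.46 on the log2 scale between days 1 and 2, which exceeded the yardstick of 1.13. The share of *Notch1* in the summed FPKM of the 3 receptors was 31.7% in ES cells and 14.2% on day 2, and that of *Notch3* was 34.4% and 53.9%. A like share of *Notch3* was held by *Smad4*-line WT cells on day 2 (53.6%), with 9.97 FPKM of *Notch3* and 1.85 of *Notch1*. In that line *Notch3* was already at 5.05 FPKM on day 1, and its log2 ratio between days 1 and 2 was 0.98, just short of the threshold.

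Among the ligands, *Jag1* stood at 3.52, 2.47, 2.19 and 1.69 FPKM in ES cells and on days 1, 2 and 3, a log2 ratio of −1.06 from the first to the last. This was within the yardstick of 1.35, and *Jag1* was not called with a pseudocount of 1 (log2 −0.75), after rescaling to TPM (−0.93) or after median centring (−0.995). *Dll1* stood at 1.35, 1.53, 0.593 and 1.84 FPKM, lowest on day 2. *Dll3*, a divergent Delta-like protein that does not activate receptors on neighbouring cells, stood at 0.542, 0.485, 0.711 and 2.25 FPKM. Both Delta-like genes were about 3 times higher on day 3 than on day 2, with log2 ratios of 1.64 for *Dll1* (yardstick 1.98) and 1.66 for *Dll3* (yardstick 1.63), and neither was called with a pseudocount of 1. *Lfng*, a glycosyltransferase that modifies Notch receptors, stood at 1.82, 1.12, 2.24 and 3.59 FPKM. Its log2 ratios of 1.00 between days 1 and 2 and 0.98 from the ES state to day 3 lay just short of the threshold.

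Among the effectors, *Hes1* stood at 8.77, 8.07, 27.3 and 31.0 FPKM at these stages, and was 3.38-fold higher on day 2 than on day 1 (log2 1.76, yardstick 0.95). *Hey1* stood at 2.63, 2.81, 2.02 and 1.34 FPKM, lower by 0.97 on the log2 scale on day 3 than in ES cells (yardstick 1.63) and not called. The rise of *Hes1* thus exceeded its yardstick, while the fall of *Hey1* lay within its own. The WT cells of the *Smad4* line differed from F1G4 cells most for 4 values. *Dll3* was higher in the *Smad4* line by 1.88 on day 1 and 1.26 on day 2 on the log2 scale, *Hes1* was at 20.4 FPKM against 8.07 on day 1 (log2 1.34), and *Hey1* was at 0.850 against 2.02 on day 2 (log2 −1.25). On day 2 *Hes1* was close in both lines, at 28.2 and 27.3 FPKM, so that its log2 ratio between days 1 and 2 was only 0.47 in the *Smad4* line.

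Among genes that work with *Dll1* in the presomitic mesoderm, the transcription factor genes *Tbx6*, *Msgn1* and *Mesp2* and the corepressor gene *Ripply2* were mostly near 0. *Tbx6* reached 0.738 FPKM on day 3 in F1G4 WT cells, *Mesp2* was at most 0.279 FPKM in any of these stages, and *Ripply2* was listed at 0 from day 1 on. *Msgn1* was the exception, as it had 0 FPKM in both ES and day 2 cells and 21.6 FPKM in day 3 cells. In the 3 KO lines made from F1G4 cells *Msgn1* was listed at 0 on day 3, while *Dll3* was at 0.274 to 0.383 FPKM.

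*Smad4* is the common partner of the receptor-activated Smads of Bmp and Nodal signalling. On day 1 the *Smad4* KO cells had more *Dll1*, *Dll3* and *Lfng* RNA than WT cells of their line, and on day 2 more *Hey1*. On day 1, 3 genes were called higher and 0 lower of 9 examined, beside 4.77% of all genes called in either direction. *Dll1* was at 3.36 FPKM in KO and 1.58 in WT cells (log2 1.09). *Dll3* was at 4.14 FPKM in KO and 1.78 in WT cells (log2 1.22). *Lfng* was at 3.76 FPKM in KO and 1.46 in WT cells (log2 1.36). For these genes the KO values were the highest of all 14 conditions, although *Lfng* was nearly as high in F1G4 WT cells on day 3 (3.59 FPKM). The ligand *Jag2*, which is not one of the 10 genes, stood the other way, at 4.47 FPKM in KO and 6.88 in WT cells (log2 −0.62, not called). The yardstick at this level was 1.35, which *Lfng* exceeded and *Dll1* and *Dll3* did not, and with a pseudocount of 1 none of the 3 was called. The receptors and *Jag1* differed by at most 0.39 on the log2 scale on day 1, and *Hey1*, at 3.03 FPKM in WT cells, was lower in KO cells by 0.68.

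On day 2, 1 gene was called higher and 0 lower of 8 examined, beside 5.77% of all genes. It was *Hey1*, at 2.93 FPKM in KO against 0.850 in WT cells (log2 1.78, yardstick 1.63), and it was examined only through its KO value. The WT value on which this rests was the lower of both WT lines, since F1G4 cells had 2.02 FPKM of *Hey1* on day 2. *Hes1* was at 15.0 FPKM in KO against 28.2 in WT cells (log2 −0.91) and *Notch3* at 5.10 against 9.97 (log2 −0.97), both short of the threshold, and *Notch2* was at 6.70 against 6.77. *Dll1*, *Dll3* and *Lfng* stood nearer to WT than on day 1, with log2 ratios of 0.87 (both values below 1 FPKM), −0.25 and 0.66. *Dll1* was at 3.36 FPKM on day 1 and 0.785 on day 2 in KO cells, and at 1.58 and 0.431 in WT cells. The 5 neural progenitor markers summed to 30.4 FPKM in KO against 15.3 in WT cells on day 1 and to 72.2 against 30.7 on day 2. Among them *Pax6* was at 5.65 against 1.02 FPKM on day 1, *Sox1* at 1.62 against 0.136, and *Neurog2* was listed at 0 in both, with 3 of 5 markers above 1 FPKM in KO and 2 of 5 in WT cells. Their part in the values of the Notch genes was not tested, and in such bulk samples fewer cells of a type and less RNA per cell cannot be told apart.

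**Figure D2:**
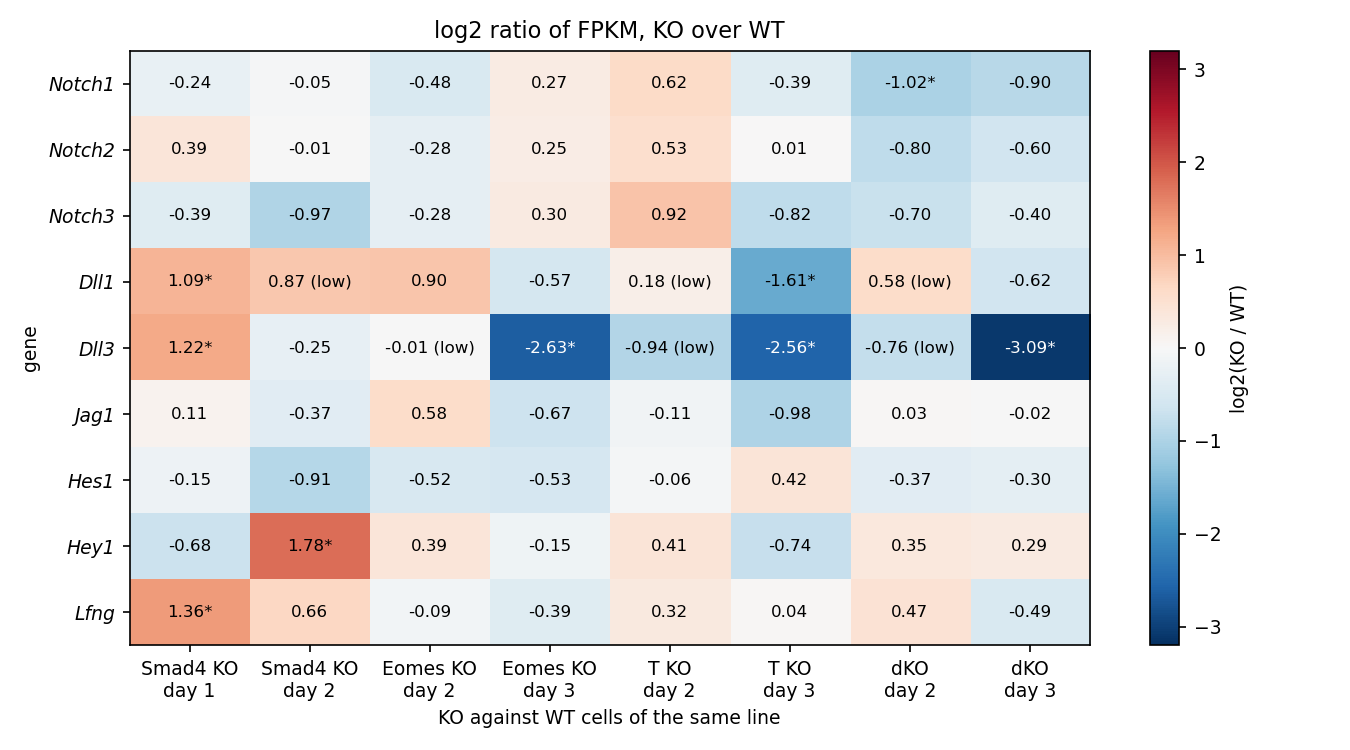
Log2 ratio of FPKM in KO over WT cells for 9 Notch pathway genes (rows) in 8 comparisons (columns). An asterisk marks a call and (low) marks a gene at or below 1 FPKM in both groups. The darkest cells are those of Dll3 on day 3, at −2.63 (Eomes KO), −2.56 (T KO) and −3.09 (dKO).

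In the KO lines made from F1G4 cells the lowest log2 ratios were those of *Dll3* on day 3. On that day it was at 0.379 FPKM in *Eomes* KO cells against 2.34 in WT, 6.19-fold lower. It was at 0.383 FPKM in *T* KO cells against 2.27 in WT, 5.91-fold lower. In dKO cells it was at 0.274 FPKM against 2.33 in WT, 8.51-fold lower. These KO cells share the same WT values, rescaled in each table by factors of 1.01 to 1.04. The comparisons are therefore not independent of each other. All 3 log2 ratios (−2.63, −2.56 and −3.09) exceeded the yardstick of 1.63. On the scale of the time course, the 6 KO values of *Dll3* lay between 0.264 and 0.708 FPKM. The highest of them, in *Eomes* KO cells on day 2, lay within the range of F1G4 WT cells before day 3 (0.485 to 0.711), and the other 5 lay below that range. WT cells of the *Smad4* line had more, at 1.78 FPKM on day 1 and 1.71 on day 2.

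Markers of other cell types differed in the same day 3 cells. The neural progenitor gene *Sox1* was at 5.51 FPKM in *Eomes* KO, 0.905 in *T* KO and 6.24 in dKO cells against 0.192 in WT, and *Pax6* at 0.661, 0.139 and 3.88 against 0.0469. *Nes*, the highest marker of this list, was lower than in WT (25.5 FPKM) in *Eomes* KO (17.6) and dKO cells (23.8) and higher in *T* KO cells (36.9). The 5 neural progenitor markers summed to 23.8, 38.0 and 33.9 FPKM in these lines and to 25.7 in WT, with 2, 1 and 3 of them above 1 FPKM against 1, and *Neurog2* was listed at 0 throughout. The 4 definitive endoderm markers summed to 0.358 FPKM in *Eomes* KO, 3.2 in *T* KO and 0.492 in dKO cells against 7.64 in WT. Among them *Foxa2* was at 0.0757, 2.77 and 0.298 FPKM against 4.50 in WT. Their part in the values of the Notch genes was not tested.

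*Dll1* differed among the lines on day 3. It was at 0.608 FPKM in *T* KO cells against 1.86 in WT (log2 −1.61, called, yardstick 1.98). It was at 1.29 against 1.92 in *Eomes* KO cells (log2 −0.57) and at 1.24 against 1.91 in dKO cells (log2 −0.62), neither of which was called. *Jag1* was at 0.861 FPKM in *T* KO cells against 1.70 in WT (log2 −0.98), just short of the threshold, at 1.11 against 1.76 in *Eomes* KO cells, and at 1.74 against 1.75 in dKO cells. *Jag2* was at 2.19 FPKM in *T* KO cells against 2.84 in WT, at 2.05 against 2.94 in *Eomes* KO cells and at 2.61 against 2.92 in dKO cells. Of the 9 genes examined on day 3, 0 were higher and 1 lower in *Eomes* KO cells, beside 16.4% of all genes called. In *T* KO cells 0 were higher and 2 lower, beside 6.04% of all genes, and in dKO cells 0 were higher and 1 lower, beside 11.0% of all genes. The called genes, *Dll3* in each line and *Dll1* in *T* KO cells, were examined only through their WT values and so could be called only as lower, which leaves these counts a description. The median log2 ratio of the 9 genes with values above 0 was −0.39 in *Eomes* KO, −0.74 in *T* KO and −0.49 in dKO cells, where that of all such genes lay between −0.02 and 0.01.

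The effectors differed less from WT on day 3. *Hes1* was at 22.4 FPKM in *Eomes* KO cells on day 3 against 32.5 in WT (log2 −0.53) and at 26.1 against 32.3 in dKO cells (log2 −0.30). In *T* KO cells it was at 42.0 FPKM against 31.3 (log2 0.42), the highest value of any condition. These differences were within the yardstick of 0.92 to 0.95 in each line. *Hey1* was at 0.812 FPKM in *T* KO cells against 1.35 in WT (log2 −0.74), and differed by 0.29 or less in the other lines. *Lfng* was at 3.71 FPKM in *T* KO cells against 3.61 in WT, at 2.85 against 3.73 in *Eomes* KO cells and at 2.64 against 3.72 in dKO cells. Unlike *Dll3*, *Lfng* therefore kept its day 3 level to within 0.49 on the log2 scale in each of the 3 lines.

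**Figure D3:**
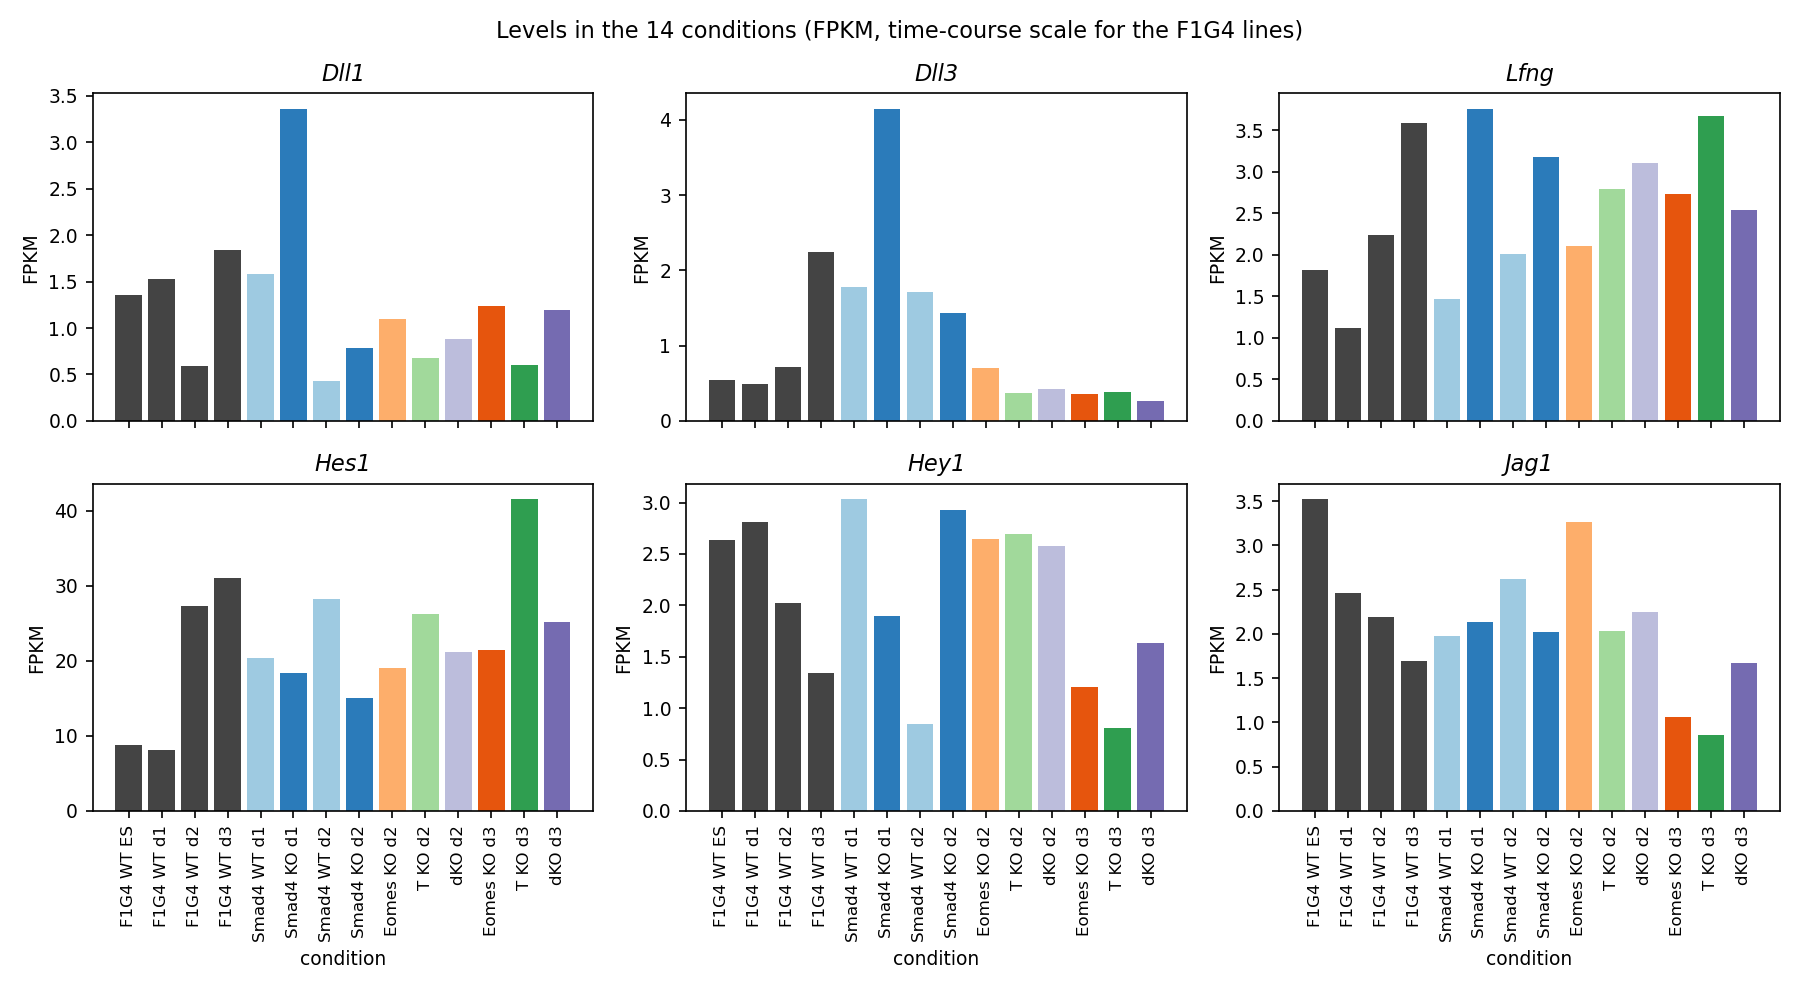
FPKM of 6 Notch pathway genes (bars from 0) in the 14 conditions, with KO columns of the F1G4 lines put on the scale of the time course through their WT columns. Dll3 stood above 1 FPKM in 5 conditions, namely F1G4 WT cells on day 3 and the 4 conditions of the Smad4 line.

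On day 2, when *Dll1* and *Dll3* were below 1 FPKM in WT cells, few Notch genes passed the rule. In *Eomes* KO cells 0 of 8 examined genes were called, beside 7.52% of all genes. *Dll1* was at 1.09 FPKM against 0.586 in WT (log2 0.90) and *Jag1* at 3.23 against 2.17 (log2 0.58). *Hes1* was at 18.9 FPKM against 27.1 (log2 −0.52). The 5 neural progenitor markers summed to 37.6 FPKM in these cells and to 26.7 in WT cells, with 3 and 1 of them above 1 FPKM, and their part in these values was not tested. In *T* KO cells 0 of 7 examined genes were called, beside 15.6% of all genes, and in dKO cells 0 were higher and 1 lower of 7, beside 7.99% of all genes. The gene called in dKO cells was *Notch1*, at 1.19 FPKM against 2.41 (log2 −1.02). *Sox1* was at 3.89 FPKM in *T* KO and 5.23 in dKO cells against 0.202 in WT, and *Pax6* at 0.760 and 4.27 against 0.101. *Nes*, the highest of the 5 markers, went the other way, at 16.3 FPKM in *T* KO and 21.9 in dKO cells against 26.3 in WT. The 5 markers summed to 21.03 FPKM in *T* KO and 31.55 in dKO cells against 26.7 in WT, and their part in the values of the Notch genes was not tested. *Hes1* was at 27.1 FPKM in *T* KO cells against 28.3 in WT and at 21.0 against 27.1 in dKO cells.

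In 5 of the 6 KO conditions of the lines made from F1G4 cells, the 3 receptors stood on the same side of WT. In *T* KO cells on day 2, *Notch3* was at 18.1 FPKM against 9.60 in WT (log2 0.92), the highest receptor value of any condition. *Notch1* was at 3.85 FPKM against 2.51 (log2 0.62) and *Notch2* at 8.19 against 5.68 (log2 0.53). Here all 3 receptors were above WT. In dKO cells on day 2 all 3 were below WT, with log2 ratios of −1.02 for *Notch1*, −0.80 for *Notch2* and −0.70 for *Notch3*. On day 3 they stood above WT in *Eomes* KO cells (log2 0.27, 0.25 and 0.30) and below it in dKO cells (log2 −0.90, −0.60 and −0.40). In *T* KO cells on day 3 *Notch3* was at 4.35 FPKM against 7.66 (log2 −0.82), *Notch1* at 2.45 against 3.21 and *Notch2* at 6.70 against 6.65.

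The receptor transcripts are among the longest of protein-coding genes (8016 to 10500 bases, above the 95th percentile), with GC contents of 53.6% to 59.6%. The ratios of other long transcripts moved in the same comparisons. The median log2 ratio of the 300 protein-coding genes nearest to each receptor in length and GC content was 0.17 to 0.30 in *T* KO cells on day 2 and 0.37 to 0.43 in *Eomes* KO cells on day 3. In dKO cells it was −0.46 to −0.47 on day 2 and −0.13 to −0.24 on day 3. The 3 receptors stood further below WT than these like genes in dKO cells on day 3, *Notch1* by the most. With this median subtracted, *Notch3* was higher by 0.61 on the log2 scale in *T* KO cells on day 2, and the 3 receptors were at −0.15, −0.12 and −0.11 in *Eomes* KO cells on day 3. In the same way *Notch1* was at −0.55 in dKO cells on day 2, where it was no longer called. Like genes of *Notch3* had medians of −0.03 in the day 2 *Smad4* comparison and −0.04 in the day 3 *T* comparison, where *Notch3* itself stayed at −0.94 and −0.77. The part of length and GC content in these ratios was not tested. For the shorter *Dll3* the like genes had medians of 0.16, −0.01 and −0.02 on day 3 in cells lacking *Eomes*, *T* and both. The summed FPKM of a column differed as well. After rescaling to TPM *Notch3* was called higher in *T* KO cells on day 2, while *Notch1*, *Notch2*, *Notch3* and *Dll3* were called lower in dKO cells on day 2. *Dll3* was below 1 FPKM in both groups of that last comparison and so was not examined under the main rule. On day 3 *Jag1* was then called lower in *T* KO cells and *Notch1* in dKO cells. The median log2 ratio of genes on each of the 7 chromosomes that hold the Notch genes lay between −0.16 and 0.05 in the 8 KO comparisons.

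**Figure D4:**
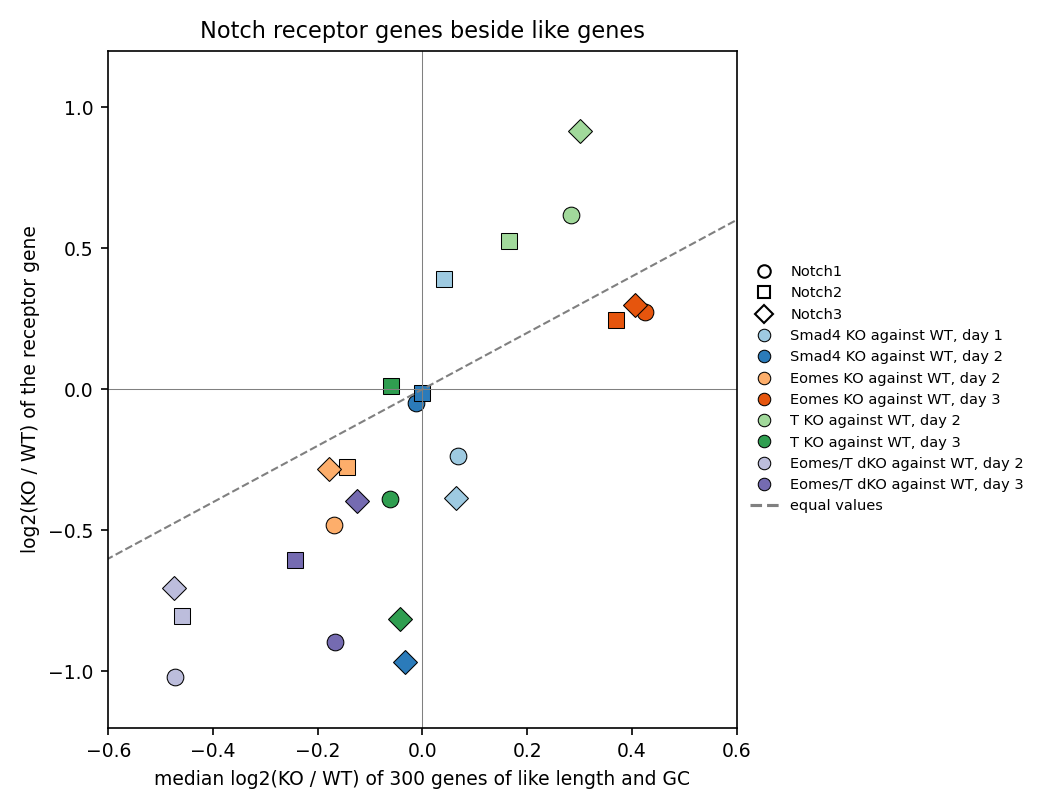
Log2 ratio (KO over WT) of Notch1, Notch2 and Notch3 (vertical axis) against the median log2 ratio of 300 protein-coding genes of like transcript length and GC content (horizontal axis) in 8 comparisons, with a dashed line of equal values. The Eomes KO day 3 points lie just below that line. The Notch3 points of Smad4 KO day 2 (−0.97), T KO day 3 (−0.82) and T KO day 2 (0.92) lie far from it, and so does the Notch1 point of dKO day 3.

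Another 44 genes of the pathway were taken from a list. *Notch4*, *Dll4*, *Hes5* and *Heyl* stayed below 1 FPKM in all 14 conditions, whereas *Jag2*, the other Jagged ligand, stood at 2.55, 4.41, 6.56 and 2.81 FPKM in ES cells and on days 1, 2 and 3 of F1G4 WT cells. From the ES state to day 3, 5 of 32 examined genes were called higher and 6 lower, beside 31.1% of all genes called. *Rbpj*, the DNA-binding partner of the receptor's intracellular domain, was at 42.8 FPKM (ES cells), 17.6 (day 1) and 10.5 (day 3), a log2 ratio of −2.03 over the 3 days. *Furin*, which cleaves the receptor during its maturation, was at 0.883 and 5.95 FPKM (log2 2.75). *Mib2*, a ubiquitin ligase for ligand endocytosis, was at 10.0 and 2.96 FPKM (log2 −1.76), and the protease gene *Adam10* at 3.33 and 7.82 (log2 1.23). From the ES state to day 1, 1 gene was higher and 1 lower of 29 examined, beside 13.5% of all genes, *Rbpj* being the lower (log2 −1.29). Between days 1 and 2, 2 were higher and 0 lower of 29, beside 11.3% of all genes. Between days 2 and 3, 2 were higher and 1 lower of 31, beside 10.2%, the lower being *Jag2* (log2 −1.22).

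In *Smad4* KO cells 0 of 29 and 0 of 32 examined genes of this list were called on days 1 and 2, beside 4.77% and 5.77% of all genes. *Nrarp*, a feedback inhibitor and known Notch target, was at 2.56 FPKM in KO cells on day 2 against 3.54 in WT. In *T* KO cells on day 2, 4 genes were higher and 3 lower of 31, beside 15.6% of all genes. *Nrarp* was at 7.79 FPKM against 3.32 in WT (log2 1.23) and *Numbl*, a Notch inhibitor of the Numb family, at 8.11 against 3.52 (log2 1.21). *Adam10* was at 1.64 FPKM in KO cells (log2 −1.66) and the deacetylase gene *Hdac1* at 31.4 against 74.5 (log2 −1.25). *Nrarp* and *Notch3* were thus both highest of all conditions in *T* KO cells on day 2, while *Hes1* and *Hey1* differed there by −0.06 and 0.41. On day 3, 0 genes were higher and 1 lower of 31 in *T* KO cells (*Adam10*, log2 −1.09), beside 6.04% of all genes. In *Eomes* KO cells 2 were higher and 1 lower of 33 (among them *Furin*, at 2.99 FPKM against 6.22, log2 −1.06), beside 16.4%, and in dKO cells 0 were higher and 1 lower of 32, beside 11.0%. On day 2, 1 gene was higher and 0 lower of 31 in *Eomes* KO cells, beside 7.52% of all genes, and 0 were higher and 2 lower of 31 in dKO cells, beside 7.99%.

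The genes whose pattern over the 14 conditions was most like that of each Notch gene were found by Pearson's r of log2(FPKM + 1), among genes above 5 FPKM in at least 1 condition. The conditions share WT parents and trends with length, so these values are a description. *Notch2* was most like *Cpd* (r = 0.965), *Prkx* (0.934) and *Dyrk2* (0.913). *Notch3* was most like *Pomt2* (0.956), *Mogs* (0.911) and *Rpn2* (0.89), and *Notch1* like *Ptpn23* (0.91), *Sec24b* (0.896) and *Cmip* (0.894). For the ligands, *Dll3* was most like *Peg12* (0.92), *Ripk3* (0.899) and *C330007P06Rik* (0.886), *Dll1* like *Mettl7a1* (0.837), *Sharpin* (0.835) and *Kif1bp* (0.776), and *Jag1* like *Ddx20* (0.919), *Nupl1* (0.898) and *Tomm70a* (0.895). *Hes1* was most like *Dusp10* (0.91), *Mgat1* (0.909) and *Pdlim3* (0.897), *Hey1* like *Adam23* (0.849), *Endog* (0.818) and *Syt9* (0.801), and *Lfng* like *Gnai2* (0.834), *Agpat4* (0.81) and *Trappc6a* (0.809). With the day 2 *T* KO and day 3 *Eomes* KO conditions left out, in which long transcripts stood higher than short ones, 9 of the 27 were found again, *Cpd* for *Notch2* and *Pomt2* for *Notch3* among them. Trends with length remained in the conditions kept. Long transcripts stood lower than short ones in dKO cells on day 2 (median log2 −0.26 against 0.29) and day 3 (−0.17 against 0.10). The same held in *Eomes* KO cells on day 2 (−0.08 against 0.10). Long transcripts stood slightly higher in *Smad4* KO cells on day 1 (0.05 against −0.08), nearly as in the *T* KO cells left out (0.06 against −0.10).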

How the data were processed

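RNA was taken from 40000 cells per sample, and paired-end libraries that keep the strand were prepared with ScriptSeq v2. Per the submitters' processing notes and the study's methods, the authors used FastQC, cutadapt 2.9, HISAT2 2.1.0, SAMtools 1.9 and Cuffdiff 2.2.1 with mm10 and the refSeq annotation, corrected for multi-mapped reads and bias but not for effective length. The deposited values are FPKM from the authors, 1 for each of 24538 genes and each condition. FPKM is relative, so a change in a few abundant RNAs shifts all other values. Depth and counting error are unknown.

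Ratios were taken within a table, without a pseudocount. Calls needed FPKM above 1 in either group and a log2 ratio above 1 or below −1, and a gene listed at 0 in one group only was called without a fold. KO columns of F1G4 lines were put on the time-course scale by dividing by the median factor of their WT columns. Transcript length and GC content came from the longest GENCODE vM21 protein-coding transcript, found for 24008 of 24512 symbols. Duplicated names (4 rows of the time course) were left out. All 10 members were described, with the 4 presomitic partners, the 3 most alike genes of each, and up to 4 called genes of the other pathway list per comparison with the largest ratio at 5 FPKM or more. Other genes of that list named without a call were chosen after their values were seen. Alternatives were pseudocounts of 0.1 and 1, no FPKM minimum, a minimum of 5, TPM, median centring, the WT-line yardstick, the time-course WT column and, chosen after seeing the data, subtraction of genes of like length and GC. The calling step was tested on simulated data, with planted changes well past the threshold in genes above 5 FPKM. That test does not bear on calls near the threshold or at lower levels. The members and lists were chosen with earlier results of these data known. Python 3.11.15, numpy 2.4.6, pandas 2.3.3 and matplotlib 3.10.9 were used.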

Additional observations from a re-analysis of the deposited data

Results flagged for a closer look

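Opposite directions of at least 1.5-fold between days of a KO line, or between KO lines on a day, were found for *Hey1*, *Notch1* and *Notch3*, and none of these differences was tested. *Hey1* differed between KO and WT cells of the *Smad4* line by −0.68 (log2) on day 1 and by 1.78 on day 2, a difference of −2.46. *Notch3* differed by −1.88 between *Smad4* KO and *T* KO cells on day 2, by 1.73 between day 2 and day 3 of *T* KO cells, and by 1.62 between *T* KO and dKO cells on day 2. *Notch1* differed by 1.64 between *T* KO and dKO cells on day 2. With the median of genes of like length and GC content subtracted, *Notch3* was at 0.61 in *T* KO cells on day 2, −0.77 on day 3, −0.23 in dKO cells on day 2 and −0.94 in *Smad4* KO cells on day 2, and *Notch1* was at 0.33 and −0.55 in *T* KO and dKO cells on day 2. The KO lines made from F1G4 cells share their WT values.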

How the results depend on the processing

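No paired analysis was possible because each condition has a single pooled FPKM value, and for the same reason no value could be computed without a replicate. Median centring, removal of the FPKM minimum and the WT column of the time course left every count of called Notch genes within 1.5 times, for those comparisons in which they were run, and no called ratio changed its sign under any alternative. With a minimum of 5 FPKM, 0 genes were called between days 2 and 3, in *Smad4* KO cells on days 1 and 2, on day 3 in the 3 KO lines made from F1G4 cells and in dKO cells on day 2, and 3 from the ES state to day 3, since most members lie below that level. With a pseudocount of 1, 0 were called between days 2 and 3, in *Smad4* KO cells on day 1 and in dKO cells on day 2, and 1 in *T* KO cells on day 3. With a pseudocount of 0.1, 0 were called in dKO cells on day 2. When calls also had to exceed the WT-line yardstick, 1 was called between days 2 and 3 (*Dll3*), 1 in *Smad4* KO cells on day 1 (*Lfng*), 1 in *T* KO cells on day 3 (*Dll3*) and 0 in dKO cells on day 2. After rescaling to TPM, 1 was called in *T* KO cells on day 2, 4 in dKO cells on day 2 and 2 in dKO cells on day 3. With genes of like length and GC content subtracted, 1 was called in *Eomes* KO cells on day 2 (*Dll1*) and 0 in dKO cells on day 2. From the ES state to day 3, TPM and median centring each left 5 genes called, but with *Lfng* in place of *Jag1*, and *Jag1* was also lost with a pseudocount of 1 and against the yardstick. Where not given by construction, the cause was not tested. *Dll3* stayed called on day 3 in the 3 KO lines under each alternative but the minimum of 5 FPKM.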
